A study of Homo sapiens with 4 samples.

Results

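The genes described here are 6 markers of human pluripotent stem cells: DPPA2, DPPA4, UTF1, USP44 and VRTN, which encode proteins, and ESRG, a long non-coding RNA gene. They were taken by name from the deposited gene table, where all 6 were found among 16174 listed genes. The cells were of H9, a long-established line of human embryonic stem cells kept in the primed state, and had received a piggyBac vector with a doxycycline-inducible dCas9 fused to BFP and the KRAB repressor domain, and were selected with puromycin. One arm carried 4 pooled guides against the long non-coding RNA gene SNHG26 and the other arm control non-targeting guides, and all cells, controls included, were given doxycycline. Cells were collected on day 2 or day 3 of doxycycline, so each arm has 2 libraries, 1 per day, and every mean ± SD over an arm has n = 2 and includes any effect of the day. The labels describe selected cells and name no clone, and nothing says that the libraries came from separate cultures, so p-values measure only the spread between these samples, which may be technical.

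DPPA2 and DPPA4 are neighbouring genes whose proteins carry a SAP DNA-binding domain, bind each other and sit at developmental promoters that bear both activating and repressive histone marks. UTF1 is a chromatin protein of the same kind of promoter, and a known target of OCT4 and SOX2. ESRG is transcribed from an endogenous retrovirus of the HERVH family and is among the most specific transcripts of primed human stem cells. USP44 is a deubiquitinase that acts on histone H2B and on the mitotic checkpoint, and VRTN (vertnin) is a DNA-binding protein first known for its effect on vertebral number in pigs. All 6 serve as markers of the undifferentiated state.

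The values are TPM, which set each gene's reads against a length and bring every library to the same sum. The steps between low values showed this length to be the genomic span, introns included, for genes whose values came out as whole reads. These were 20.6% of genes with a value, DPPA2 and UTF1 among them. DPPA4, ESRG, USP44 and VRTN did not come out whole, so for them the genomic span is assumed. TPM per genomic span favours short and intronless genes, and levels are compared between genes on that assumption. With every read placed on the full listed span, the libraries held at most 947338 to 1220265 reads, more on day 3 than on day 2 in each arm. SNHG26, the targeted gene, was listed at 0 and 0.933 TPM on days 2 and 3 with its guides and at 2.98 and 4.03 TPM with control guides, a difference of -1.69 on log2(TPM + 1) (SE 0.58) with a limma adjusted p of 0.935. Its limma unadjusted p was 0.0417. Both libraries with its guides lay below both control libraries, as did 13.2% of all genes tested. Markers of the stem-cell state were present in every library: POU5F1 (OCT4) at 1050 to 1212 TPM, SOX2 at 241 to 307 TPM and NANOG at 22.4 to 35.5 TPM. Of other cell types' markers, 4 of 10 neuroectoderm genes were listed and summed on days 2 and 3 to 24.5 and 21.3 TPM with SNHG26 guides and to 23.3 and 17.2 TPM with control guides, nearly all from NES, which stem cells also express. The 4 listed of 11 mesendoderm genes summed to 0 TPM in both SNHG26 libraries, and with control guides to 5.34 TPM on day 2 and 1.98 TPM on day 3, with EOMES and FOXA2 at 0 throughout. The 2 listed of 10 amnion and trophectoderm genes summed to at most 1.29 TPM in any library, with ISL1 at 0 throughout. The part of such cells in the results below was not tested.

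RefSeq promoter sequences, from 250 bases before to 50 bases after the start that RefSeq gives, were found for 4 of the 6 genes (DPPA2, DPPA4, UTF1 and VRTN; build GRCh38.p14). Those of DPPA4 and UTF1 are shown because these are the 2 tested genes with the lower values in both libraries with SNHG26 guides, and that of DPPA2 because it is the neighbour and partner of DPPA4. Each is written 5′ to 3′ on the strand of the gene, and capitals mark the GC box GGGCGG, searched on both strands with overlapping matches counted. DPPA4 lies on the minus strand at chr3:109337497-109337796, DPPA2 on the minus strand at chr3:109316468-109316767, and UTF1 on the plus strand at chr10:133229967-133230266.
DPPA4: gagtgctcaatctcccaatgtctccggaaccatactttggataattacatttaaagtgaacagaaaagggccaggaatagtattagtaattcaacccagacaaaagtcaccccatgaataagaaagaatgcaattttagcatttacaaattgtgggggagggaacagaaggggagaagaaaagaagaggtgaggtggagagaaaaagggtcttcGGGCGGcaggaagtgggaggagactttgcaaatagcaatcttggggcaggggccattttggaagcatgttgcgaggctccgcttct
DPPA2: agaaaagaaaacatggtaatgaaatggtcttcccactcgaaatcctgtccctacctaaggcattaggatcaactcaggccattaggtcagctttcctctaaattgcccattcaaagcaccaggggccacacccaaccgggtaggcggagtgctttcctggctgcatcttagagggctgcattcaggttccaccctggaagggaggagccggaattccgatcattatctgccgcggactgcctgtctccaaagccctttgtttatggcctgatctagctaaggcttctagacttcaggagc
UTF1: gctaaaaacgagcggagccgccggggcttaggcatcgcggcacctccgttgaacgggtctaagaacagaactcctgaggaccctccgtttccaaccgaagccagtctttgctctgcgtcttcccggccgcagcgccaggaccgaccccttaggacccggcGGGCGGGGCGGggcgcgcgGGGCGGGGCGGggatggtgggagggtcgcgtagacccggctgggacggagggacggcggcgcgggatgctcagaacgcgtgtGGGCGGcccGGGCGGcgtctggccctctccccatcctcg

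The 3 windows are unlike in composition. UTF1 had 71.7% G and C, 39 CG dinucleotides and 6 GC boxes, and 83.4% of all 35116 promoters in the table had a lower G and C content. DPPA4 had 45.3%, 5 CG dinucleotides and 1 GC box, and DPPA2 had 51.3%, 7 CG dinucleotides and no GC box, against medians of 58.7% and 14 CG dinucleotides over all promoters. VRTN had 51.0%, 5 CG dinucleotides and no GC box in a window (plus strand, 74348221 to 74348520) that lies inside the listed gene, around the start of the shorter of its 2 GENCODE transcripts and not at the listed start. At least 1 GC box stood in 45.0% of all promoters and at least 3 in 15.8%. Exact matches to the octamer ATGCAAAT, a form of the OCT4 site, were in none of the 4 windows and in 1.77% of all promoters, the SOX motif AACAATG in none and 3.33%, and the TATA box TATAAA in none and 11.5%.

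DPPA4 was lower with SNHG26 guides on both days. It is listed on the minus strand of chromosome 3 from 109326144 to 109337546, and GENCODE release 29 gives it 8 transcripts. It stood at 210.2 TPM on day 2 and 183 TPM on day 3 with SNHG26 guides, and at 315 and 266 TPM with control guides. Both SNHG26 libraries lay below both control libraries, and in each arm the day 3 library was the lower one. DPPA4 averaged 196 ± 19.6 TPM (SD, n = 2) with SNHG26 guides against 290.4 ± 34.4 TPM (SD, n = 2) with control guides, so the control mean was 1.48 times the other, and the ratio was 1.50 on day 2 and 1.46 on day 3. On log2(TPM + 1) the day 2 difference was -0.58 and the day 3 difference -0.54, averaging -0.56 (SE 0.19, 95% interval -1.08 to -0.04). Limma gave an unadjusted p of 0.0395 and an adjusted p of 0.935 over 8274 genes, so the difference did not pass the threshold of 0.05. An exact two-sided permutation test gave 0.333, the smallest p that 2 libraries against 2 allow. In bulk RNA, fewer cells with DPPA4 and less DPPA4 RNA per cell cannot be told apart. On the full span the values correspond to at most 329, 319, 447 and 452 reads in the order given.

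POU5F1, the gene of OCT4, gives a scale within each library, since its own guide difference was 0.01 (SE 0.14). DPPA4 stood at 0.200 and 0.151 of the POU5F1 TPM on days 2 and 3 with SNHG26 guides and at 0.295 and 0.226 with control guides, again without overlap. Against SOX2 the ratios were 0.873 and 0.695 with SNHG26 guides and 1.28 and 0.865 with control guides, so there the arms overlapped.

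DPPA2, the partner of DPPA4, ends 9626 bases from it, on the same strand (109293788 to 109316517), and was barely detected. It was listed at 0.962 and 1.15 TPM on days 2 and 3 with SNHG26 guides and at 0.707 and 0.591 TPM with control guides. The order of the arms was thus the opposite of that of DPPA4, also without overlap. DPPA2 has 1 transcript in GENCODE release 29, and its values came out as 3 and 4 whole reads with SNHG26 guides and 2 and 2 with control guides. The exact 95% Poisson intervals of these counts overlapped, from 0.619 to 8.77 reads for the first and from 0.242 to 7.22 for each control library. Over the 2 libraries of an arm, 7 reads against 4 gave a depth-adjusted ratio of 1.65 with an exact 95% interval of 0.419 to 7.68, so a difference was not detectable at this depth. These intervals cover counting error only, since amplified reads without molecular identifiers are not independent molecules. With a mean of 0.852 TPM, DPPA2 lay under the minimum of 1 TPM for the test, and in a fit with no such minimum its difference was 0.32 (SE 0.34) with a limma adjusted p of 0.893. DPPA4 stood at 218 and 159 times the DPPA2 TPM with SNHG26 guides and at 445 and 450.3 times with control guides.

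**Figure D1:**
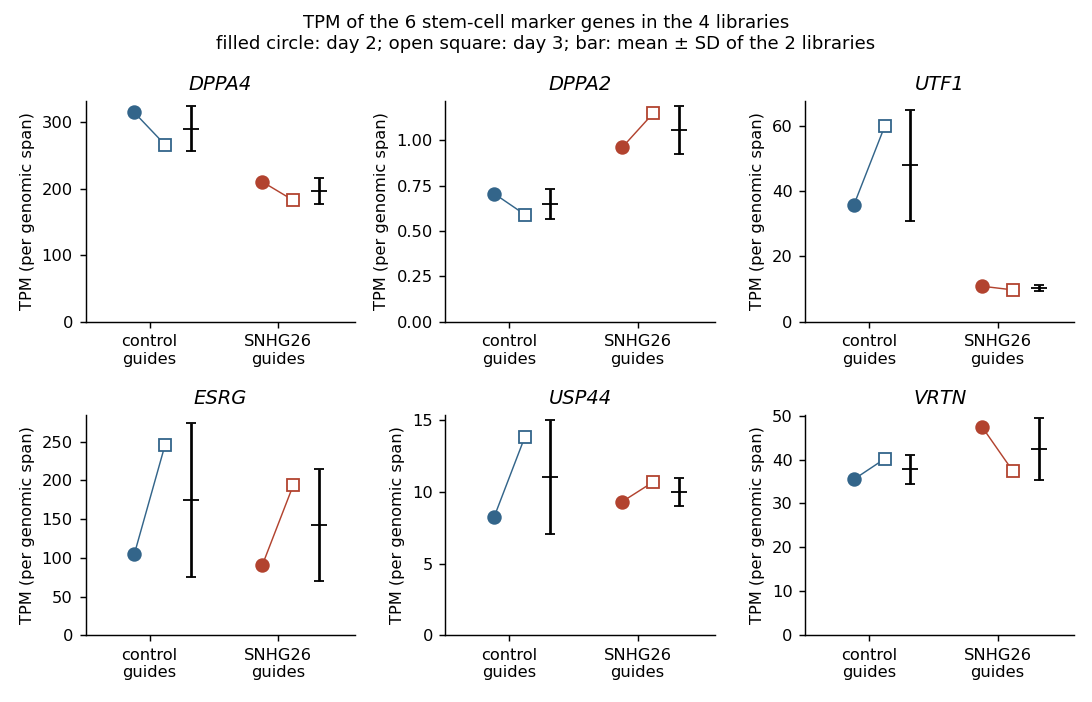
TPM (vertical axis, linear from 0) of each of the 6 genes in the control-guide libraries (blue) and the SNHG26-guide libraries (red). The axis is labelled per genomic span, which is assumed for all but DPPA2 and UTF1. Filled circles are day 2, open squares day 3, and black bars mean ± SD of the 2 libraries of an arm. DPPA4 and UTF1 were lower in both SNHG26 libraries, DPPA2 higher, and ESRG and USP44 were higher on day 3 in both arms.

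UTF1 showed the widest gap between the arms among the 6 genes. It is a short gene of 1342 bases on chromosome 10 (plus strand, 133230217 to 133231558), with 1 transcript in GENCODE release 29. It was listed at 10.9 and 9.73 TPM on days 2 and 3 with SNHG26 guides and at 35.9 and 60.1 TPM with control guides. The SNHG26 libraries were close together and both lay below the control libraries, which differed from each other. UTF1 averaged 10.3 ± 0.800 TPM (SD, n = 2) with SNHG26 guides against 48.0 ± 17.1 TPM (SD, n = 2) with control guides, and the control value was 3.31 times the other on day 2 and 6.17 times on day 3. On log2(TPM + 1) UTF1 differed by -1.64 on day 2 and by -2.51 on day 3, on average by -2.07 (SE 0.36, 95% interval -3.05 to -1.09). The limma unadjusted p was 0.00396, rank 76 of 8274 genes, and the adjusted p was 0.431, so UTF1 did not pass, and the exact permutation p was again 0.333.

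Few reads lie behind these values. The TPM of UTF1 came out as whole reads in all 4 libraries, within 0.0001 read: 2 and 2 with SNHG26 guides and 6 and 12 with control guides, 1 read being worth 4.87 to 5.99 TPM. The exact 95% Poisson intervals were 0.242 to 7.22 reads for each SNHG26 library, 2.20 to 13.1 for the day 2 control library and 6.20 to 21.0 for the day 3 control library, so those of day 2 overlapped widely and those of day 3 narrowly. Summed over the arms, 18 control reads against 4 gave a depth-adjusted ratio of 4.78 with an exact 95% interval of 1.57 to 19.4, which compares these libraries by counting error only and not the conditions. With limma's voom on whole reads, an alternative chosen after seeing the data, the difference was -1.80 (SE 0.80), with an unadjusted p of 0.0320 and an adjusted p of 0.922 over 1160 genes. Relative to POU5F1, UTF1 stood at 0.0104 and 0.00803 with SNHG26 guides and at 0.0336 and 0.0511 with control guides.

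**Figure D2:**
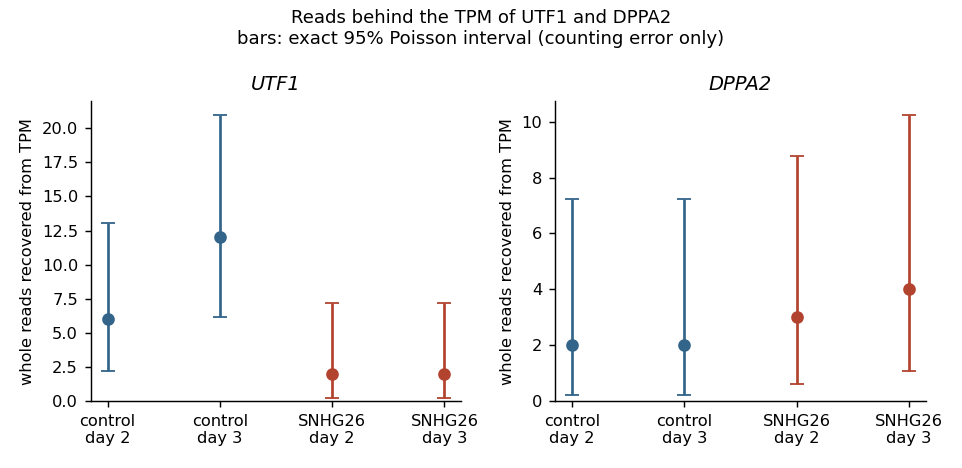
Whole reads recovered from the TPM of UTF1 (left) and DPPA2 (right) in each library, on a linear axis from 0, with exact 95% Poisson intervals as bars (counting error only). UTF1 had 6 and 12 reads with control guides and 2 in each SNHG26 library, and DPPA2 had 2 to 4 reads in every library.

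ESRG differed by day more than by guide. It is listed on the minus strand of chromosome 3 from 54632109 to 54657002, within CACNA2D3 on the opposite strand, a calcium channel subunit gene listed at 0 TPM in all 4 libraries. ESRG stood at 91.0 TPM on day 2 and 194 TPM on day 3 with SNHG26 guides, and at 104 and 246 TPM with control guides. Both day 3 libraries lay above both day 2 libraries. The day 3 value was 2.13 times that of day 2 with SNHG26 guides and 2.35 times with control guides. The means were 97.7 ± 9.55 (SD, n = 2) TPM on day 2 and 219.6 ± 36.7 (SD, n = 2) TPM on day 3, a log2(TPM + 1) difference of 1.15 (SE 0.20, 95% interval 0.59 to 1.72). The limma unadjusted p was 0.00494, rank 120 of 8274 genes, and the adjusted p was 0.338, so the difference did not pass, and the exact two-sided permutation p was 0.333.

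The call for ESRG between the days depended on the genes tested and on the block. Among genes averaging 50 TPM or more, and with a replicate block for the arm, settings chosen after seeing the data, the difference passed with a limma adjusted p of 0.00171 over 1145 genes, of which 35 were called (3.06%), against an adjusted p of 0.139 without the block. The SE there was 0.22 with the block and 0.20 without it, so the lower p did not come with a smaller SE. With the block over all 8274 genes the limma adjusted p was 0.529, and the difference did not pass. The read totals were also higher on day 3 than on day 2, and their part in the ESRG values, which are scaled to each library's sum, was not tested. The labels do not say whether the days were extracted or prepared together.

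Between the guide arms, the ESRG value with control guides was 1.15 times that with SNHG26 guides on day 2 and 1.27 times on day 3. The log2(TPM + 1) difference was -0.27 (SE 0.59, 95% interval -1.90 to 1.36, limma adjusted p = 0.998), within the spread between the days. This fit has no term for the day, so the day difference of ESRG enters the SE. With a replicate block for the day the same difference had an SE of 0.19 and a limma adjusted p of 0.908. On matched days the difference was -0.20 on day 2 and -0.34 on day 3. Its sign turned without the day 2 SNHG26 library (0.27) and without the day 3 control library (0.34). Each of those fits sets 1 day of an arm against both days of the other, so the day difference enters it. On the listed span of 24894 bases the values correspond to at most 311, 738, 324 and 910.1 reads. GENCODE release 29 holds 1 ESRG transcript, with a span of 7736 bases, and on that span they would be 96.5, 229, 101 and 283 reads, so which reads were counted beyond it is not known.

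USP44, on the minus strand of chromosome 12 from 95516560 to 95551476, was low and without a clear order between the arms. It stood at 9.32 and 10.7 TPM on days 2 and 3 with SNHG26 guides and at 8.24 and 13.8 TPM with control guides. The control libraries enclosed the SNHG26 libraries, and in each arm the day 3 value was the higher. The guide difference on log2(TPM + 1) took opposite signs, 0.16 on day 2 and -0.34 on day 3, and averaged -0.09 (SE 0.37, 95% interval -1.11 to 0.93; limma adjusted p = 0.998). Without the day 3 control library it became 0.25. The difference between the days was 0.43 (SE 0.27, 95% interval -0.34 to 1.20; limma adjusted p = 0.760), and 0.26 without the day 3 control library. The values correspond to at most 35.8 to 71.9 reads.

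VRTN, on chromosome 14 (plus strand, 74303069 to 74360008), was the steadiest of the 6 genes across the libraries. It stood at 47.4 and 37.4 TPM on days 2 and 3 with SNHG26 guides and at 35.5 and 40.2 TPM with control guides. The highest and the second lowest values were thus both in the SNHG26 arm, and the arms overlapped. The guide difference on log2(TPM + 1) also took opposite signs, 0.41 on day 2 and -0.10 on day 3, and averaged 0.15 (SE 0.26, 95% interval -0.56 to 0.86; limma adjusted p = 0.991). Without the day 2 SNHG26 library it became -0.02. The difference between the days was -0.08 (SE 0.24; limma adjusted p = 0.950). GENCODE release 29 gives VRTN 2 transcripts, with spans of 53965 and 11596 bases, and on the listed span the values correspond to at most 252 to 370.1 reads.

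The genes were ordered by TPM averaged over the 4 libraries, with the genomic span taken as the length. The order was DPPA4 with 243 TPM, ESRG with 159 TPM, VRTN with 40.1 TPM, UTF1 with 29.1 TPM, USP44 with 10.5 TPM and DPPA2 with 0.852 TPM. The ranges over libraries of DPPA4 (183 to 315 TPM) and ESRG (91.0 to 246 TPM) overlapped, as did those of VRTN (35.5 to 47.4 TPM) and UTF1 (9.73 to 60.1 TPM), and of UTF1 and USP44 (8.24 to 13.8 TPM). The range of DPPA2 (0.591 to 1.15 TPM) lay below all others, and those of ESRG and VRTN did not meet. This order rests on the spans, which run from 1342 bases for UTF1 to 56940 for VRTN. UTF1 held 2 to 12 reads, against at most 35.8 to 71.9 for USP44 on its full span. The order by reads can therefore differ from that by TPM, and UTF1 is not shown to be the more abundant of these 2.

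Read together, 5 of the 6 genes reached the minimum for the test, and 0 of these 5 were called by limma between SNHG26 and control guides at the adjusted threshold of 0.05, where 0 of 8274 genes passed (0%). At an unadjusted p under 0.05 there were 2 of the 5, DPPA4 and UTF1, both lower with SNHG26 guides, against 2.05% of all genes tested that were lower and 2.02% that were higher, 4.07% in either direction. The same 2 had both SNHG26 libraries below both control libraries, as did 13.2% of all genes tested. None of the 5 had both SNHG26 libraries above, as did 16.1%, and DPPA2, which did, was not among those tested. DPPA4, UTF1 and ESRG, 3 of the 5, were lower with SNHG26 guides on each day, against 21.8% of all genes, and USP44 and VRTN went opposite ways on the 2 days, against 44.3%. With the replicate block and at least 50 TPM, 1.22% of 1145 genes were called between the guides and neither of the 2 marker genes tested there, DPPA4 and ESRG. The 5 genes had a median guide difference of -0.27 on log2(TPM + 1), against 0.04 over all genes tested. On matched days the median was -0.20 on day 2 and -0.34 on day 3. Without the day 3 control library the median was 0.24, and without the day 2 SNHG26 library it was -0.02. It was -0.46 and -0.44 without the day 3 SNHG26 and the day 2 control library. Each of these fits sets 1 day of an arm against both days of the other, so day differences enter these medians.

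Between the days, 0 of the 5 passed in limma, against 3 of 8274 genes (0.0363%), and ESRG alone had an unadjusted p under 0.05, as had 6.61% of all genes, 3.44% with the higher value on day 3 as ESRG. ESRG and USP44 had both day 3 libraries above both day 2 libraries, as had 17.1% of all genes tested, and both were higher on day 3 in each arm, as were 24.3%. UTF1 and VRTN differed between the days in opposite directions in the 2 arms, as did 42.0% of all genes tested, and for UTF1 the read number in the SNHG26 arm was 2 on both days. No gene of the 5 passed in the test of whether the guide difference itself differed between the days, with limma adjusted p-values of at least 0.965. At an unadjusted p under 0.05 there were 0, against 3.52% of all genes, and 8 genes passed over all (0.0967%). With 1 library per arm and day, the guide and day differences of a gene enter the spread that this test uses. It therefore cannot show that a guide difference was equal on the 2 days.

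**Figure D3:**
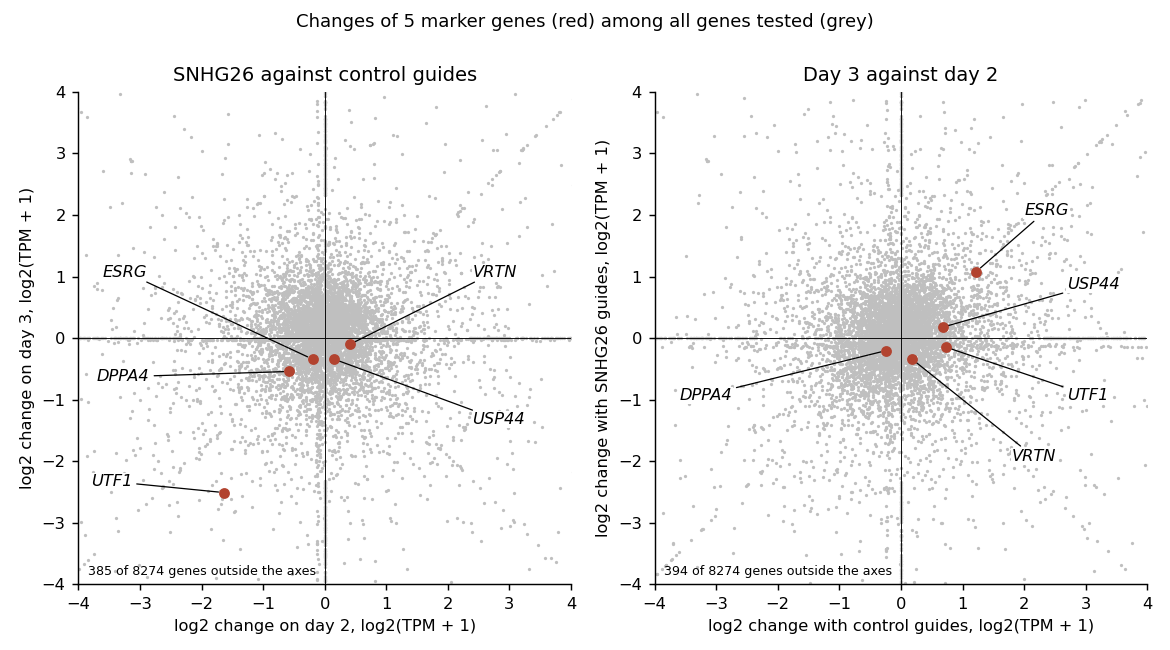
Differences on log2(TPM + 1) of the 5 tested marker genes (red) among all 8274 genes tested (grey): SNHG26 against control guides on day 2 (horizontal) and day 3 (vertical) at left, and day 3 against day 2 with control guides (horizontal) and SNHG26 guides (vertical) at right. At left 385 genes and at right 394 genes lie outside the axes. UTF1 lies at -1.64 and -2.51 at left, and ESRG at 1.23 and 1.08 at right.

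Other genes of the stem-cell programme were set beside these. Of 26 further pluripotency genes, 25 were listed and 22 tested, and 0 were higher and 0 lower past the limma threshold, with 0 at an unadjusted p under 0.05. Their median guide difference was -0.02, with 12 lower and 10 higher. The highest was LEFTY1, a secreted inhibitor of Nodal signalling, at 1.13 (SE 1.07), with 66.2 and 31.9 TPM with SNHG26 guides and 56.1 and 7.03 TPM with control guides. The lowest was FOXD3, a forkhead factor, at -1.20 (SE 1.14), with 0 and 7.65 TPM with SNHG26 guides and 6.27 and 5.24 TPM with control guides. FOXD3 spans only 2562 bases, so few reads lie behind its values. Of both genes the libraries of the arms overlapped.

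**Figure D4:**
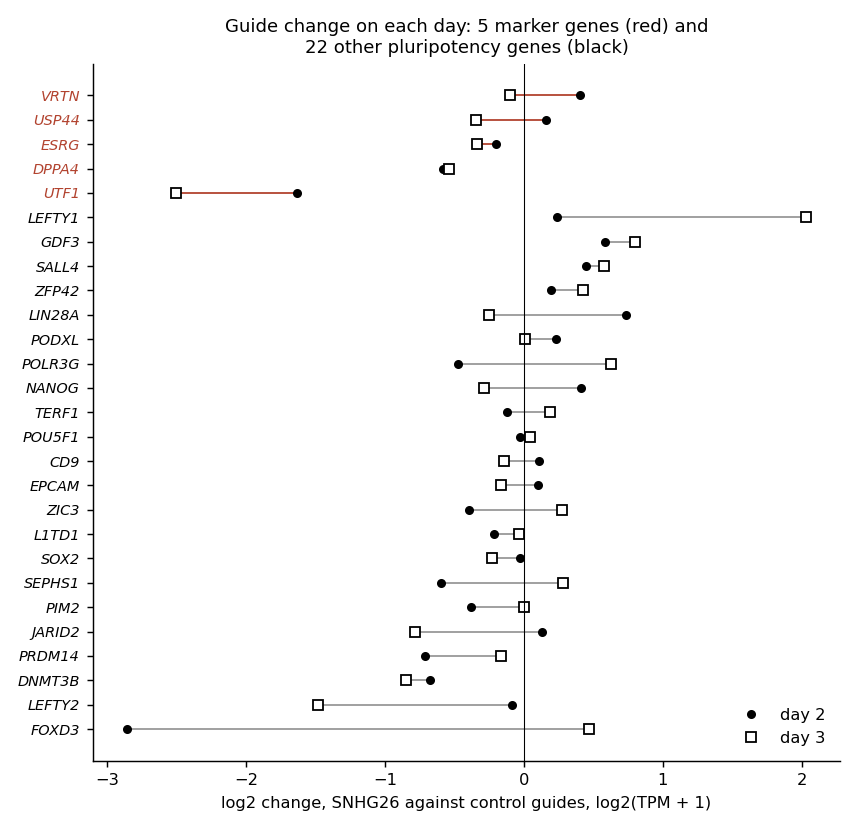
Guide difference on log2(TPM + 1) (horizontal axis) of the 5 tested marker genes (red names) and 22 other pluripotency genes (black names), with day 2 as filled circles and day 3 as open squares joined by a line. UTF1 and DPPA4 lie left of 0 on both days, VRTN and USP44 on opposite sides of 0, and POU5F1 near 0.

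The remaining DPPA genes were sparse. DPPA5, a KH-domain RNA-binding protein of the germline and naive cells, was listed at 6.01 and 10.8 TPM on days 2 and 3 with SNHG26 guides. With control guides it was listed at 0 and 5.53 TPM, a difference of 1.83 (SE 1.03, limma adjusted p = 0.935). DPPA5 spans 1214 bases, less than the 1342 of UTF1, where 1 read was worth 4.87 to 5.99 TPM. Very few reads therefore lie behind the DPPA5 values. DPPA3, known as Stella, was listed at 1.19 TPM in the SNHG26 library and 5.24 TPM in the control library of day 2, and at 0 in both day 3 libraries. With DPPA2 and DPPA4, 4 of 4 genes of the family were listed and 3 tested, 0 passed in either direction, and the median guide difference was -0.56, which is that of DPPA4. Of 10 naive-state genes, which include DPPA3 and DPPA5, 6 were tested and 0 passed in either direction, with a median of -0.62, DPPA5 as the highest and KLF4 as the lowest at -0.95 (SE 0.72). Of 10 genes of early embryonic genome activation, known targets of DPPA2 and DPPA4 in mouse cells among them, none had a row in the table as given, so they are not analysed here.

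Genes of the proteins that work with the markers were tested as 2 lists. Of 13 chromatin and decapping genes linked to UTF1 or the DPPA pair, 8 were tested, 0 passed in either direction, and the median guide difference was -0.06, with 4 lower and 4 higher. The highest was DCP1A, a decapping factor that UTF1 is known to bind, listed at 8.02 and 7.50 TPM with SNHG26 guides and at 1.61 and 0.747 TPM with control guides, a difference of 2.03 (SE 0.40). Its limma unadjusted p was 0.00655 and its adjusted p 0.558. It was the only 1 of the 8 with an unadjusted p under 0.05, against 2.02% of all genes tested that were higher. The lowest was KMT2A, a histone H3 lysine methyltransferase gene, listed at 0 on both days with SNHG26 guides, and with control guides at 5.65 TPM on day 2 and 0.915 TPM on day 3.

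Of 12 genes linked to USP44, 10 were tested, 0 passed in either direction, and the median was -0.04, with 6 lower and 4 higher. At a limma unadjusted p under 0.05 there were 2 of the 10, both lower, against 2.05% of all genes tested that were lower. The lowest was RNF40, which with RNF20 places ubiquitin on histone H2B, the mark that USP44 removes. RNF40 was listed at 1.65 and 3.04 TPM with SNHG26 guides and at 11.9 and 15.4 TPM with control guides, a difference of -2.15 (SE 0.39; limma unadjusted p 0.00476, adjusted p 0.477). The highest was BUB3, a mitotic checkpoint gene, at 0.42 (SE 0.30), with 60.9 and 70.3 TPM against 39.7 and 59.3 TPM. Both lists share their libraries with the marker genes, so they are no separate support.

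The genes with the profile most like each marker were taken from the 3062 genes that averaged 10 TPM or more, by the smallest Euclidean distance between log2(TPM + 1) values centred on their own mean over the 4 libraries. For DPPA4 these were TMEM52 (distance 0.0690) and TMEM203 (0.0746), for ESRG TMEM276 (0.0709) and BNIP3L (0.0960), for USP44 HMG20B (0.0839) and GABARAPL1 (0.0926), and for VRTN EIF4E2 (0.0242) and H2AC20 (0.0711). UTF1 had no profile as near, the closest being GNPTG (0.503) and TFE3 (0.601). This distance grows with the size of the differences, which were widest for UTF1, and few reads lie behind its values. The larger distance therefore does not show that the UTF1 profile is distinct. TMEM203 stood at 41.9 and 37.5 TPM with SNHG26 guides and 61.5 and 51.4 TPM with control guides, and BNIP3L at 7.51 and 17.4 TPM against 8.28 and 20.5 TPM. With 4 libraries and 3062 candidates, close profiles are a description of these libraries.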

How the data were processed

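Poly(A) RNA of H9 cells was reverse-transcribed with oligo-dT, amplified for 14 PCR cycles and sequenced as long nanopore reads, per the labels' protocols. The deposited values are TPM per gene, in 1 table with a column for each library. The submitters' processing notes name minimap2 2.24-r1122 and GRCh38; the counter, annotation release and filters are not given in the sources used here. The listed genes sum to 953827 to 958319 TPM per library.

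Reads were recovered as TPM times listed span divided by the commonest such product in a library, the worth of 1 read. In each library 13 of 13 mitochondrial mRNAs came out whole under it, and 2853 of 13840 genes with a value (20.6%) did so in all libraries within 0.0001 read.

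Values entered the fits as log2(TPM + 1), a scale that shrinks differences between low values. The 8274 genes averaging 1 TPM or more went through limma 3.58.1 under R 4.3.3 (mean-variance trend, Benjamini-Hochberg over all genes tested, threshold 0.05). The fit was first run on simulated reads, with changes placed only in genes with many reads and with no day difference. That run cannot tell how the fit performs for genes with few reads, such as UTF1, or where the days differ. Single values had an exact permutation test. Alternatives were pseudocounts of 0.1 and 5, no filter, minimums of 5 and 50 TPM, quantile and median ratio normalization, no trend, a replicate block, voom on whole reads and leaving out each library. The named genes are the 6 members, SNHG26, the highest and lowest of each list, and the 2 nearest profiles per member tested. POU5F1, SOX2, NANOG, L1TD1, ZFP42, LIN28A, DNMT3B, NES, EOMES, FOXA2, ISL1, CACNA2D3 and DPPA3 are named outside this rule, as cell identity markers, a scale, a host gene and a family member, and were chosen after their values were seen. The members, lists and tests were chosen with earlier results of these data known.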

Additional observations from a re-analysis of the deposited data

Results flagged for a closer look

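The guide differences of USP44 and VRTN had opposite signs on the 2 days. The day differences of UTF1, DPPA2 and VRTN had opposite signs in the 2 arms. The guide difference of VRTN was 0.41 on day 2 and -0.10 on day 3, a difference of -0.51 on log2(TPM + 1), and that of USP44 was 0.16 and -0.34, a difference of -0.50. The difference from day 2 to day 3 was -0.14 with SNHG26 guides and 0.73 with control guides for UTF1, which differ by -0.87, and 0.13 and -0.10 for DPPA2, which differ by 0.23. For VRTN it was -0.34 with SNHG26 guides and 0.17 with control guides. In reads, UTF1 stood at 2 on both days with SNHG26 guides and DPPA2 at 2 on both days with control guides, so the signs in those arms come from the TPM worth of 1 read, which differed between the libraries. Limma's test of the difference itself gave adjusted p-values of at least 0.965 for VRTN, USP44 and UTF1, and of 0.997 for DPPA2 in a fit with no minimum TPM. The guide and day differences of a gene enter the spread that this test uses, so it cannot decide these cases. Over all genes tested, 44.3% had guide differences of opposite sign on the 2 days, and 42.0% had day differences of opposite sign in the 2 arms. Each share is for 1 contrast, so neither gives the share of genes with opposite signs in either contrast.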

How the results depend on the processing

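Of the 6 genes, 0 were called between the guide arms under any of the 15 other settings that tested them. The guide difference of DPPA4 ran from -0.68 to -0.44 and that of UTF1 from -2.44 to -1.71 over the settings that tested them, with limma adjusted p-values from 0.288 to 0.994 and from 0.238 to 0.966. With 1 library left out at a time, the lone library of an arm or day is assumed to vary like the other pair. These fits are unbalanced, so day differences enter the guide difference, and guide differences enter the day difference. The guide difference then ran from -0.88 to 0.34 for ESRG, from -0.43 to 0.25 for USP44 and from -0.015 to 0.32 for VRTN. The day difference then ran from -0.51 to 0.068 for DPPA4, from -0.96 to 1.54 for UTF1, from 0.26 to 0.60 for USP44 and from -0.28 to 0.12 for VRTN, and the median guide difference of the genes from -0.46 to 0.24. That median was -0.41 with at least 50 TPM and -0.52 with voom, which held 2 genes each. DPPA2 could be tested only with no filter and with voom (0.75, limma adjusted p = 0.922).

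The count of all genes called between the guides was 0 except for 14 with the replicate block and at least 50 TPM. The 3 genes called between the days became 0 with pseudocounts of 0.1 and 5, no filter, quantile normalization, no trend, the replicate block, at least 50 TPM and each library left out, 5 with voom, and 35 with the replicate block and at least 50 TPM, 1 of them ESRG (1.15). The test of whether the guide difference differed between the days called 8 genes. It called 14 at pseudocount 0.1 and 13 with at least 5 TPM. It called 0 with a pseudocount of 5, no filter, no trend, voom, the replicate block, and at least 50 TPM with or without that block. The cause was not tested. Pairing by day was checked on each library's departure from its arm's mean, which correlated at 0.0464 between same-day libraries over 8274 genes. As each arm has only a day 2 and a day 3 library, these departures hold nothing but the day difference of each arm. The check therefore cannot tell a further pairing of same-day libraries from the day itself, which is known from the labels. No conclusion on pairing is drawn from it. The replicate block alone changed no call among the 6 genes.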
